A study of Rattus norvegicus with 12 samples.

Results

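The axon guidance ligands and receptors of the rat retina were followed here in sham-operated animals and in animals with traumatic optic neuropathy (TON). The members were taken by gene symbol, as every row of the expression table named as a class 3 to 7 semaphorin, plexin, neuropilin, ephrin, Eph receptor, Slit, Robo, netrin, Unc5 gene or Dcc. This gave 71 of the 22714 protein-coding genes of the table. They comprised 20 semaphorins, 9 plexins, 2 neuropilins, 8 ephrins, 14 Eph receptors, 3 Slits, 4 Robo genes, 4 netrins, 6 genes whose symbols begin with Unc5, and Dcc. Unc50 and Unc5cl were taken by name only and are not netrin receptors. In the study, male Sprague-Dawley rats of 7 to 8 weeks were used, and the retina was taken 12 h after surgery. For TON a clamp with a force of 40 g was held on the optic nerve for 10 s, at 2 mm from the back of the eye, and sham animals had the same surgery without the clamp. The retinas of 4 rats were pooled into each sample, which gave 3 sham samples (numbered 1 to 3) and 3 TON samples (numbered 4 to 6). Each sample was split into an input library for RNA sequencing and a library immunoprecipitated with an antibody to N6-methyladenosine (m6A), so that peaks of m6A in RNA could be called.

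Axon guidance genes code for secreted or membrane-bound cues and for the receptors on growing axons that read them. Semaphorins bind plexins, with neuropilins as co-receptors for the secreted class. Ephrins bind Eph receptor tyrosine kinases, Slits bind Robo receptors, and netrins bind Dcc and Unc5 receptors. In the developing visual system these cues lead the axons of retinal ganglion cells to the optic disc, across or away from the optic chiasm and to their targets in the brain, and many of the genes stay on in the adult retina.

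The libraries were those of a retina with some other eye tissue. Glul, the glutamine synthetase of Muller glia, stood between 1069 and 1303 FPKM (fragments scaled by transcript length and by the mapped fragments of the library) in the 6 input libraries. Estimated depth was 3163302 to 4759873 fragments per library, lowest in TON 4. Sham 1 stood apart by its markers of ocular surface epithelium, whose summed level of 5 genes was 180 FPKM against 2.43 to 26.5 in the other libraries, and by its 4 lens genes, at 3899 FPKM against 1260 to 2401. TON 5 had the highest sum of 3 skeletal muscle genes, 35.8 FPKM against 2.22 to 11.1 elsewhere. Tissue of these kinds also differed between the groups. The muscle sums were 2.22 to 2.83 FPKM in sham and 3.41 to 35.8 FPKM in TON, without overlap. In every TON library, 2 of the 5 ocular surface genes and 2 of the 4 lens genes were lower than in every sham library. The rest of these genes, and the sums of both lists, overlapped. Gfap, a marker of astrocytes and of reactive Muller glia, lay at 7.28 to 10.1 FPKM in sham and 31.0 to 39.1 FPKM in TON, whereas Pax2, the other astrocyte marker, was at 0 in every library but TON 6. The part of these differences in the results was not tested. In bulk RNA, fewer cells of a type and less RNA per cell cannot be told apart.

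Most axon guidance genes were detected in the adult retina. Of the 71 genes, 64 had a mean of at least 1 FPKM over the 6 input libraries, 10 of them at least 20 FPKM and 14 between 10 and 20 FPKM. The ligand Sema7a had the highest level of all at 146 FPKM, and the next gene, Sema6c, was at 48.9 FPKM. The most abundant receptors were the plexins Plxnb1 at 31.3 FPKM and Plxnb2 at 28.8 FPKM. At the low end, the mean was under 1 FPKM for 7 genes (Epha1, Ntn1, Ntn5, Plxnb3, Robo3, Robo4 and Unc5cl).

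**Figure D1:**
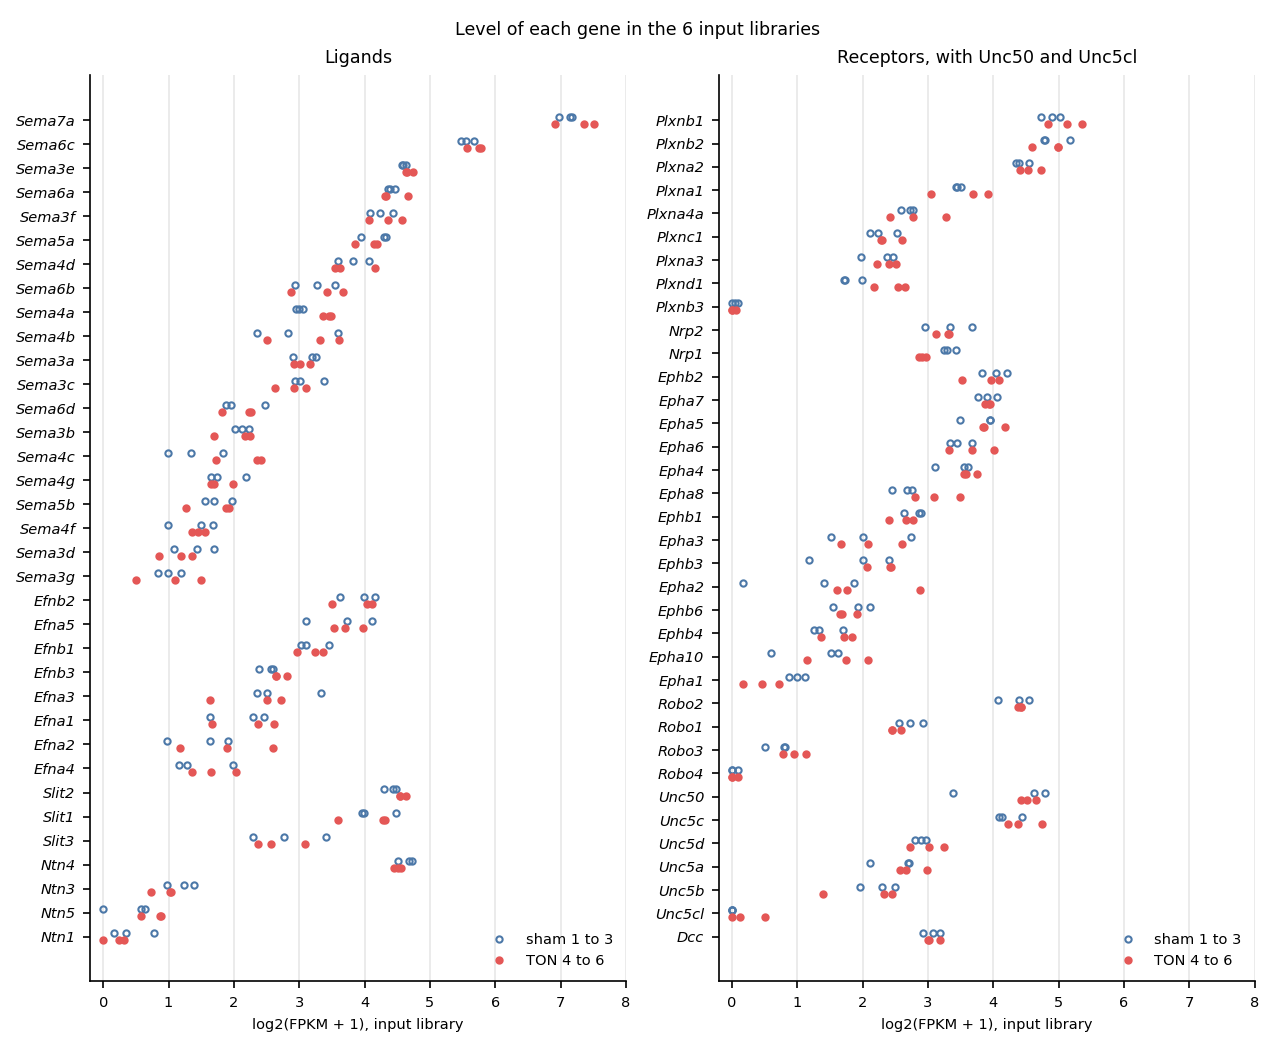
Level of each of the 71 genes on a log2(FPKM + 1) axis, with 1 open circle for each sham library and 1 filled circle for each TON library, ligands on the left and receptors on the right, ordered by family and mean. Sema7a lies far to the right of every other gene (mean 146 FPKM), and within most rows the open and filled circles intermingle.

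The first comparison asked whether the RNA level of these genes differed between TON and sham 12 h after the injury. None of the 69 genes that could be tested passed the threshold of an adjusted p under 0.05 (limma, Benjamini-Hochberg over 15900 genes). The lowest adjusted p among them by limma was 0.446, for the plexin Plxnd1. Over all genes tested, 6 were called higher (0.0377%) and 1 lower (0.00629%) in TON. At an unadjusted p under 0.05, 3 guidance genes were higher in TON (Plxnd1, Sema4a and Sema4c) against 7.06% of all genes, and 2 were lower (Nrp1 and Epha1) against 3.29% of all genes. Those 5 of 69 became 3 without sham 1, 1 without TON 6, and 0 without sham 2, without sham 3 or without TON 5. Plxnb3 and Robo4 were not tested, because neither group reached a mean of 0.1 FPKM. These p-values measure only the spread between pooled samples of 4 rats.

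By a cruder measure, the 3 TON libraries all lay above the 3 sham libraries for 6 of the 69 genes (Plxnd1, Epha8, Sema4a, Efnb3, Slit2 and Sema3e), where 10.8% of all genes tested did so. They all lay below for 2 genes (Nrp1 and Epha1), against 5.33% of all genes. The guidance genes were therefore no more often separated than genes at large. The difference between groups on the log2(FPKM + 1) scale was positive for 43 and negative for 26 genes. The positive share was 62.3%, beside 58.7% of all genes tested, and the median was 0.08, beside 0.06. That lean depended on the scaling of the libraries, since median centring and quantile normalization each gave 34 positive and 35 negative differences. Ligands split 18 to 17 with a median of 0.02, and receptors 25 to 9 with a median of 0.12, which became 13 to 22 and 21 to 13 under both of these scalings. The receptor counts include Unc50 and Unc5cl, whose differences were positive under all 3 scalings. The 95% interval of the difference lay between -1 and 1 on the log2(FPKM + 1) scale for 58 of the 69 genes, and its median half-width was 0.53, so smaller differences could not be resolved for most genes.

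**Figure D2:**
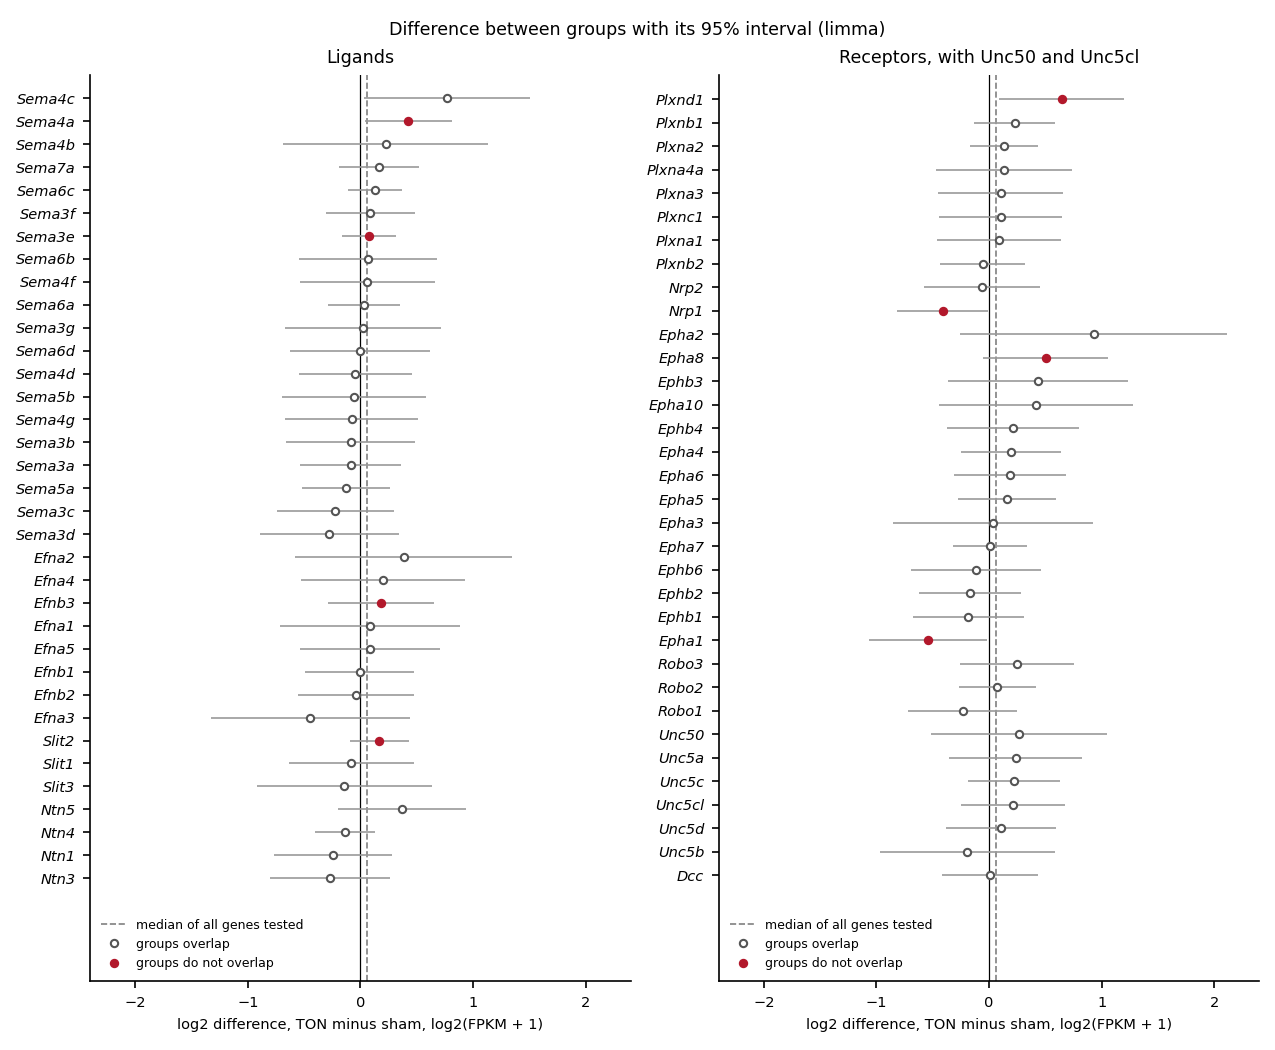
Difference between the TON and sham means on the log2(FPKM + 1) scale for the 69 genes tested, with its 95% interval from limma as a grey line, ligands on the left and receptors on the right. Red points mark the 8 genes whose groups did not overlap, and the dashed line is the median of all genes tested (0.06), near which most points lie.

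Among the ligands, the semaphorins held both the highest level and the widest range of levels. Sema7a, a membrane-anchored semaphorin that binds the plexin Plxnc1 and integrins, was at 125, 143 and 141 FPKM in sham 1 to 3. It was at 120, 182 and 164 FPKM in TON 4 to 6. TON held both the lowest and the highest library, and the log2 difference of 0.17 had an interval of -0.19 to 0.52 (limma adjusted p = 0.737). Sema6c, a transmembrane semaphorin, was at 50.2, 43.5 and 46.1 FPKM in sham and 46.6, 52.7 and 54.1 FPKM in TON, with overlapping groups (limma adjusted p = 0.696). Sema3e, a secreted ligand of Plxnd1, was tightly held at 22.7, 23.9 and 23.1 FPKM in sham and 23.9, 25.6 and 24.0 FPKM in TON. Its groups did not overlap, though by a small margin, and the TON to sham ratio was 1.06. Over the 20 semaphorins the log2 difference was positive for 11 and negative for 9 (median 0.03), and under median centring for 6 and 14 (median -0.05).

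A pair of semaphorins of class 4, the transmembrane group that signals to plexins on immune and vascular cells as well as neurons, had the larger differences. Sema4a, a gene needed for photoreceptor survival in mice, was at 7.36, 6.76 and 7.00 FPKM in sham 1 to 3 and at 10.2, 9.27 and 9.91 FPKM in TON 4 to 6. All 3 TON libraries were above all 3 sham libraries, with little spread within either group. The means were 7.04 ± 0.30 (SD, n = 3) and 9.80 ± 0.48 FPKM (SD, n = 3), a ratio of 1.39. The log2 difference was 0.43 with a standard error of 0.17 and an interval of 0.04 to 0.81, and it did not pass the adjusted test (limma adjusted p = 0.456). Sema4a lies at chr2:207201926-207219874 in the coordinates of the authors' table. Sema4c, named here after its values were seen, was at 2.58, 1.55 and 1.00 FPKM in sham and 2.30, 4.32 and 4.1 FPKM in TON. TON 4 fell inside the sham range, so the groups overlapped, and the log2 difference was 0.77 (interval 0.03 to 1.5, limma adjusted p = 0.476).

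Plexins, the receptors of semaphorins, included the gene with the lowest adjusted p of the whole set. Plxnd1, best known as the Sema3e receptor of blood vessels and of some neurons, was at 2.97, 2.32 and 2.30 FPKM in sham 1 to 3 and at 3.53, 4.84 and 5.27 FPKM in TON 4 to 6. Every TON library was above every sham library. The TON mean of 4.55 ± 0.90 FPKM (SD, n = 3) was 1.80 times the sham mean of 2.53 ± 0.38 FPKM (SD, n = 3). On the log2(FPKM + 1) scale the difference was 0.64 with a standard error of 0.24 and an interval of 0.08 to 1.20 (limma adjusted p = 0.446). The gene rested on 62 to 152 estimated fragments per library and lies at chr4:211138019-211177703. The 3 endothelial markers, which mark cells that also carry Plxnd1, summed to 25.6 to 41.2 FPKM in sham and 23.4 to 30.5 FPKM in TON, so the groups overlapped, and their part in the Plxnd1 values was not tested.

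The other plexins varied between libraries more than between groups. Plxnb1, a receptor of Sema4d, was at 31.4, 25.5 and 29.0 FPKM in sham and 27.7, 40.2 and 33.9 FPKM in TON (limma adjusted p = 0.657). Plxnb2, a receptor of class 4 semaphorins, was at 35.0, 26.3 and 26.8 FPKM in sham and 23.1, 30.7 and 30.9 FPKM in TON (limma adjusted p = 0.918). In both genes the ranges of the groups overlapped, and the highest library was TON 5 for Plxnb1 but sham 1 for Plxnb2. Of the 8 plexins tested, 7 had a positive difference, with a median of 0.12 that shrank to 0.04 under median centring.

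Neuropilins are the co-receptors that secreted semaphorins and vascular endothelial growth factor share, and Nrp1 was the only member of at least 1 FPKM whose TON libraries were all lower than sham. Nrp1 was at 8.81, 8.46 and 9.79 FPKM in sham 1 to 3 and at 6.26, 6.48 and 6.83 FPKM in TON 4 to 6. The groups did not overlap, and the sham mean of 9.02 ± 0.69 FPKM (SD, n = 3) was 1.38 times the TON mean of 6.53 ± 0.28 FPKM (SD, n = 3). The log2 difference was -0.41 with a standard error of 0.17 and an interval of -0.82 to -0.01, without passing the adjusted test (limma adjusted p = 0.481). Nrp1 lies at chr19:71984686-72136034. The 4 microglial markers also had lower sums in TON (8.90 to 11.3 FPKM) than in sham (12.2 to 14.5 FPKM). Of them, Aif1 and Tmem119 were lower in every TON library, whereas Cx3cr1 and P2ry12 overlapped between the groups. The sums of the endothelial markers (25.6 to 41.2 FPKM in sham, 23.4 to 30.5 FPKM in TON) overlapped. So did those of the 2 pericyte markers (35.9 to 60.7 and 35.7 to 48.9 FPKM) and the 7 ganglion cell markers (444 to 535 and 471 to 557 FPKM). The part of any of these cell types in the Nrp1 values was not tested. Nrp2 behaved otherwise, at 6.76, 9.10 and 11.7 FPKM in sham and 7.74, 9.0 and 8.95 FPKM in TON, where all 3 TON libraries lay inside the sham range (limma adjusted p = 0.930).

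**Figure D3:**
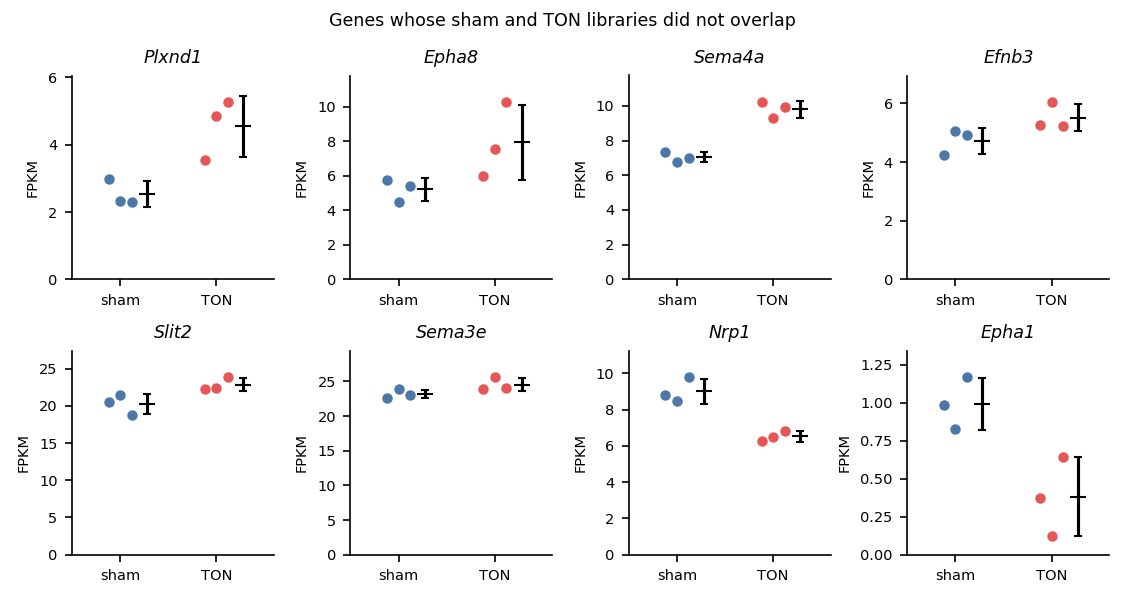
FPKM in each sham and TON library for the 8 genes whose groups did not overlap, with the mean and SD of each group (n = 3) as a black bar beside the points, every axis starting at 0. Plxnd1 and Sema4a show the wider gaps upwards and Nrp1 and Epha1 downwards, whereas Epha8, Slit2, Sema3e and Efnb3 are barely separated.

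Ephrins, the ligands of Eph receptors, were present at moderate levels. Efnb2, a transmembrane ephrin that marks arteries and takes part in the sorting of axons at the chiasm, was at 11.3, 16.9 and 14.9 FPKM in sham and 10.3, 15.5 and 16.4 FPKM in TON. Efna5, a lipid-anchored ephrin that repels temporal retinal axons in the developing midbrain, was at 16.2, 12.3 and 7.58 FPKM in sham and 10.6, 14.7 and 11.9 FPKM in TON. For both, the groups overlapped, with all TON libraries of Efna5 inside its wider sham range, and the intervals of the log2 difference were -0.55 to 0.48 and -0.53 to 0.71. Efnb3 was at 4.23, 5.06 and 4.91 FPKM in sham and 5.26, 6.04 and 5.24 FPKM in TON, separate by a small margin (ratio 1.16, limma adjusted p = 0.772). No ephrin reached an unadjusted p under 0.05, and 5 of 8 differences were positive, 4 of 8 under quantile normalization.

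The Eph receptors ranged from 0.69 to 14.6 FPKM. Ephb2, a receptor of B ephrins, was the most abundant at 13.2, 15.5 and 17.6 FPKM in sham and 10.5, 16.0 and 14.7 FPKM in TON (limma adjusted p = 0.778). Epha7 had the smallest standard error among them, 0.14, at 12.6, 14.0 and 15.7 FPKM in sham and 14.3, 13.7 and 14.5 FPKM in TON, and its log2 difference of 0.01 had an interval of -0.32 to 0.34. Epha5, a receptor that A ephrins engage on retinal axons, was at 14.5, 14.4 and 10.3 FPKM in sham and 13.3, 17.2 and 13.5 FPKM in TON. In these 3 receptors TON and sham overlapped.

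Epha8 was at 5.77, 4.49 and 5.40 FPKM in sham 1 to 3 and at 6.01, 7.53 and 10.3 FPKM in TON 4 to 6. The groups did not overlap, but TON 4 was close to sham 1 and TON 6 was well above the others. The TON mean of 7.94 ± 2.16 FPKM (SD, n = 3) was 1.52 times the sham mean of 5.22 ± 0.66 FPKM (SD, n = 3). The interval of the log2 difference of 0.50 ran from -0.05 to 1.06 (limma adjusted p = 0.528). Epha8 lies at chr5:159057428-159078493. A pair of further Eph receptors was named after their values were seen. Epha1 was low throughout, at 0.99, 0.82 and 1.17 FPKM in sham and 0.38, 0.13 and 0.64 FPKM in TON, on 2 to 16 estimated fragments per library (log2 difference -0.54, limma adjusted p = 0.478). Epha2, an epithelial Eph receptor, had the largest positive log2 difference of all members, 0.93, but with an interval of -0.26 to 2.12, because sham 3 was at 0.12 and TON 6 at 6.35 FPKM and the other 4 libraries lay between 1.66 and 2.67 FPKM. Over the 14 Eph receptors, 10 differences were positive (median 0.17), and 8 under median centring (median 0.09).

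Slit ligands were among the better expressed secreted cues. Slit2, which repels retinal axons and keeps them on course in the developing optic pathway, was at 20.5, 21.4 and 18.7 FPKM in sham and 22.3, 22.4 and 23.8 FPKM in TON. The TON libraries were all higher, by a ratio of the means of 1.13, and the interval of the log2 difference of 0.17 ran from -0.10 to 0.43 (limma adjusted p = 0.652). Slit1 was at 21.3, 14.5 and 14.8 FPKM in sham and 11.1, 18.8 and 18.4 FPKM in TON, where sham 1 was highest and TON 4 lowest. Robo2, a Slit receptor of retinal ganglion cells, was at 15.8, 22.3 and 19.9 FPKM in sham and 19.8, 20.4 and 20.5 FPKM in TON. Its 3 TON libraries lay within 1 FPKM of each other and inside the sham range. Robo1 was at 5.58, 4.91 and 6.61 FPKM in sham and 4.46, 4.49 and 5.04 FPKM in TON, overlapping through TON 6 alone (log2 difference -0.24, limma adjusted p = 0.725).

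Of the netrins, Ntn4 was by far the most abundant. Ntn4, a basement membrane netrin, was at 21.9, 24.5 and 25.5 FPKM in sham and 22.5, 21.9 and 20.8 FPKM in TON, with overlapping groups (log2 difference -0.13, interval -0.40 to 0.13). Ntn3 was near 1 FPKM in every library. Ntn1, the netrin that guides retinal axons into the optic nerve head in development, was at 0.27, 0.12 and 0.71 FPKM in sham and 0.18, 0.24 and 0 FPKM in TON, on 0 to 5 estimated fragments per library. At this depth a difference in Ntn1 was not detectable. Dcc, the netrin receptor that attracts, was steady at 8.11, 6.59 and 7.42 FPKM in sham and 8.11, 7.00 and 7.10 FPKM in TON, and its log2 difference of 0.01 had an interval of -0.42 to 0.43 (limma adjusted p = 0.993). Unc5c, a netrin receptor that repels, was at 16.6, 20.7 and 16.1 FPKM in sham and 17.6, 19.7 and 25.9 FPKM in TON (log2 difference 0.22, limma adjusted p = 0.695). Unc50 was at 26.6, 23.5 and 9.49 FPKM in sham and 24.3, 21.9 and 20.4 FPKM in TON, so that sham 3 alone was low.

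Single libraries held many of the extreme values across the families, though the same counts over all genes were not made. Of the 64 members with a mean of at least 1 FPKM, TON 6 held the highest value in 22, TON 4 the lowest in 21 and sham 3 the lowest in 19. Leaving out TON 4 moved the median log2 difference of the members from 0.08 to 0.15, while that of all genes was 0.06 in both cases. Leaving out TON 6 moved the median of the members to 0.00. Both shifts were smaller than the SD of that median between replicates, 0.09.

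Intracellular and accessory genes of axon guidance were examined as a list of 52 genes, of which 51 were in the table on 53 rows. The list also held some secreted cues, receptors and adhesion molecules. None was called by limma, and the lowest adjusted p by limma was 0.279. At an unadjusted p under 0.05, 5 were higher and 2 lower in TON, beside 7.06% and 3.29% of all genes. The groups did not overlap for 4 upwards and 2 downwards, beside 10.8% and 5.33%. The median log2 difference was 0.01. The most abundant were Cfl1, the actin-severing protein at the end of many guidance pathways, and Dpysl2, a collapsin response mediator of semaphorin signals. Cfl1 was at 273, 292 and 334 FPKM in sham and 297, 328 and 329 FPKM in TON, and Dpysl2 at 145, 172 and 160 FPKM in sham and 120, 171 and 177 FPKM in TON, both overlapping.

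A further 3 genes of that list were named after their values were seen. The one with the lowest adjusted p was Cxcl12, a chemokine that also steers axons. Cxcl12 was at 33.5, 30.4 and 29.6 FPKM in sham and 40.5, 54.0 and 58.3 FPKM in TON. All TON libraries were higher, by a ratio of 1.63, and the log2 difference of 0.68 had an interval of 0.34 to 1.02 (limma adjusted p = 0.279). Dpysl4, a relative of Dpysl2, was at 37.6, 39.4 and 40.3 FPKM in sham and 48.2, 56.8 and 65.4 FPKM in TON (ratio 1.45, limma adjusted p = 0.314). In the other direction, Rock1, a kinase through which several repellents act on the cytoskeleton, was at 40.8, 45.4 and 45.1 FPKM in sham and 36.4, 35.1 and 33.1 FPKM in TON (log2 difference -0.32, limma adjusted p = 0.381).

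The second comparison asked where m6A peaks lay on these genes and whether they were gained or lost after TON. Of the 71 genes, 44 carried a peak in 1 list or more and 17 in all 6. Among the 64 with a mean of at least 1 FPKM the share with a peak was 68.8%, beside 67.0% of the 12976 genes of that level. A peak in all 6 lists was found for 26.6% of the members and 28.8% of all these genes. The guidance genes were thus marked about as often as other genes of the retina. Peaks on members numbered 68, 59 and 63 for sham 1 to 3, and 77, 62 and 65 for TON 4 to 6. They lay on 30, 26 and 23 genes in sham and 37, 26 and 35 genes in TON, with the most in TON 4. Of the 394 peaks, 3, all in sham 1, had a false discovery rate under 5%. The share of all peaks under 5% was not computed. The median rate of members' peaks was 30.0% to 100% by list, and that of all peaks 29.65% to 92.99%. Both were highest in sham 3.

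Marked and unmarked genes were found in every large family. Epha7, Robo2, Epha5 and Sema3e carried the most peaks, whereas Slit1, Slit3, Sema3f, Epha8 and Plxna3 carried none in any list. Abundant genes did not always carry more peaks. Sema7a, the most abundant member, had a peak only in TON 4 and TON 6, Sema6c only in TON 4, and Plxnb1 only in TON 6. Plxnd1 had a single peak of 21 bases in sham 2, with a fold enrichment of 56.8 that no other list repeated.

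**Figure D4:**
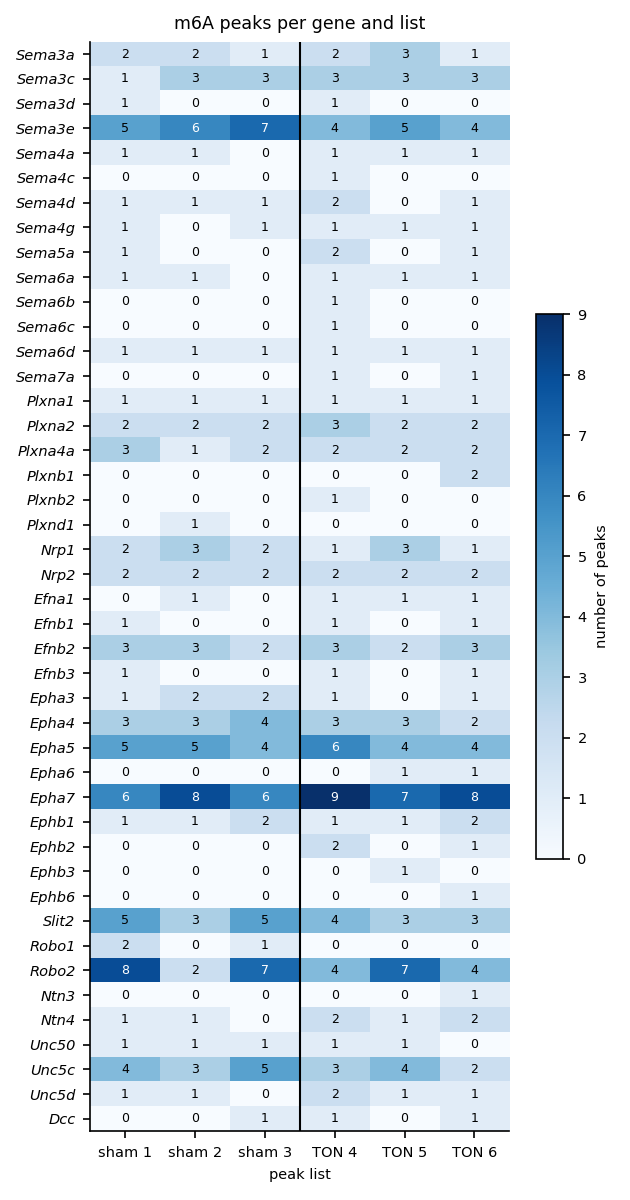
Number of m6A peaks in each of the 6 peak lists for the 44 guidance genes that carried any peak, ordered by family, darker blue for more peaks, sham to the left of the black line and TON to the right. Epha7 has 6 to 9 peaks in every list, Robo2 varies from 2 to 8, and many genes have a peak in 1 or 2 lists only.

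When peaks that shared at least 1 base were merged, the members had 116 regions. A peak was found in all 6 lists for 28 of them (24.1%, beside 21.4% of the 24605 regions of all genes) and in a single list for 32 (27.6%, beside 28.2%). Robo2 and Epha7 had 10 regions each, Epha5 and Sema3e 8 each, and Slit2 and Unc5c 6 each. Of these regions, 37 lay in the last 5000 bases of the gene or beyond its end. A further count gave 23 in its first 5000 bases or before its start, with regions of Dcc and Robo2 far upstream. The count at the end of the gene was 31.9% of the regions, beside 32.0% over all genes, counted in the same way.

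None of the regions of guidance genes was gained, meaning present in all 3 TON lists and no sham list, where 1.67% of all regions were. A single region was lost, present in all 3 sham lists and no TON list, where 1.86% of all regions were. It lies in Epha3, an Eph receptor of A ephrins, at chr11:485520-485645, inside the gene and 82.6% of the way along it. Its fold enrichment was 4.98, 6.57 and 4.80 in sham 1 to 3, with false discovery rates of 40.6%, 69.6% and 100%, so it was a weak peak in every list that held it. The RNA of Epha3 was at 5.68, 3.03 and 1.86 FPKM in sham and 5.08, 2.20 and 3.23 FPKM in TON, and thus varied within sham more than between the groups.

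The counts moved with the lists that were required. When 2 of the 3 lists of a group sufficed, 6 regions were gained (in Epha6, Ephb2, Ntn4, Sema5a, Sema7a and Unc5c) and 6 lost (in Epha3, Epha4, Robo1, Robo2, Sema3e and Unc5c), while 7.18% of all regions were then gained and 6.91% lost. Without TON 5 there were 5 gained and 4 lost, beside 5.95% and 4.91% of all regions. Without sham 2 there were 2 gained and 6 lost, beside 3.06% and 4.44%. Without sham 1, 2 were gained and 1 lost (3.12% and 3.41% of all regions), and without TON 4, 1 was gained and 2 were lost (2.38% and 2.56%). With sham 1 and TON 5 both removed, 10 of 109 regions counted as gained and 5 as lost, beside 9.37% and 7.72% of all regions. With 3 lists against 3, a two-sided exact test cannot give a p below 0.1, so no region could pass a threshold of 0.05.

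Fold enrichment, the ratio of immunoprecipitated to input reads in a peak, could not be compared directly between lists, because its median over all peaks was 8.56 in TON 4 and 9.64 in TON 6 and 6.63 to 7.21 in the other lists. Each region in all 6 lists was therefore ranked by its percentile within each list. Of the 28 regions, 6 ranked higher in all 3 TON lists than in any sham list (1 each in Epha4, Plxna4a, Slit2 and Unc5c and 2 in Nrp2), beside 12.8% of all 5261 such regions. A single region, in Sema3e, ranked lower, beside 10.6%. These shares carry no test, and these regions were named after their values were seen.

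The gene with both of its regions higher in rank was Nrp2. Its region at the start of the gene, chr9:69307749-69308103, had a fold enrichment of 9.13, 10.3 and 5.13 in sham 1 to 3 and of 38.5, 22.1 and 34.6 in TON 4 to 6. As percentiles these were 75.1, 74.8 and 22.3 in sham and 97.7, 95.9 and 96.2 in TON. The TON lists were close together near the top of the scale, and the sham lists were lower, sham 3 by far. The false discovery rates of this region were 20.29%, 29.84% and 100% in sham and 7.7%, 11.89% and 15.35% in TON. The Nrp2 region at the end of the gene, chr9:69418745-69419329, went from percentiles of 23.1, 38.9 and 55.2 in sham to 65.7, 58.4 and 62.6 in TON. Its false discovery rates were high throughout, at 44.86%, 55.79% and 100% in sham and 31.78%, 32.18% and 45.76% in TON. The level of Nrp2 RNA overlapped between the groups, as given above.

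At the end of Unc5c, chr2:265919679-265920615, the fold enrichment was 6.45, 7.74 and 8.24 in sham and 17.5, 11.6 and 21.2 in TON. The percentiles were 47.4, 56.3 and 62.9 in sham and 84.8, 80.0 and 87.7 in TON, without overlap. At the end of Slit2, chr14:66864064-66866344, the percentiles were 52.2, 53.8 and 40.0 in sham and 76.0, 63.8 and 64.9 in TON. For Plxna4a, named Plxna4 in RefSeq, and for Epha4 the gaps were smaller, with the highest sham list at percentiles of 46.7 and 79.7 and the lowest TON list at 51.8 and 80.1. The Sema3e region, chr4:17305909-17305977, was at percentiles of 82.3, 86.7 and 85.3 in sham and 69.5, 78.5 and 68.7 in TON, and it was the only one of the 4 Sema3e regions in all 6 lists whose groups were apart.

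Of the regions in all 6 lists, one in Robo2 had the highest fold enrichment of any list. This region, chr11:14759933-14760194, had a fold enrichment of 52.4, 26.7 and 17.3 in sham 1 to 3 and 7.30, 23.1 and 9.04 in TON 4 to 6. TON 4 and TON 6 were below every sham list, at percentiles of 39.0 and 45.6 against 92.9 to 99.9 in sham, but TON 5, at 96.5, was inside the sham range. The groups therefore overlapped.

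**Figure D5:**
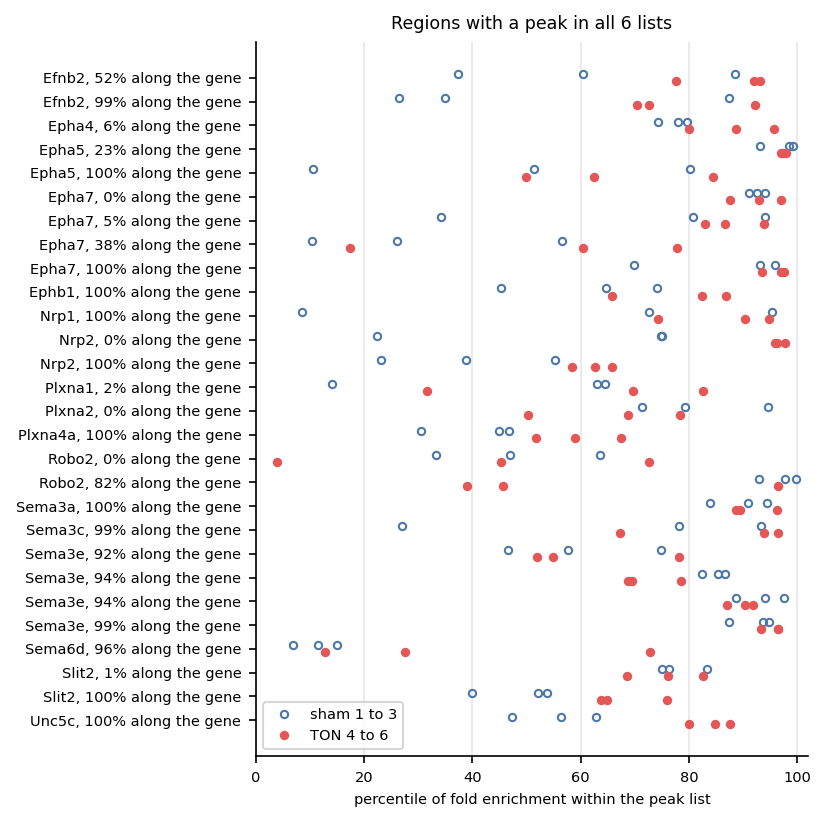
Percentile of fold enrichment within its own peak list for each of the 28 regions with a peak in all 6 lists, labelled by gene and by position along the gene, with open circles for sham and filled circles for TON. The 2 Nrp2 regions and the Unc5c region have all filled circles to the right of the open ones, and the Robo2 region at 82% has a pair of filled circles far to the left and 1 among the open circles.

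Among the 52 intracellular and accessory genes, 39 carried a peak and 19 carried one in all 6 lists. Of their 183 regions, 8 were gained in TON (1 each in Flrt1 and Vav3 and 2 each in Pak2, Rock2 and Trio) and 1 was lost (in Ptk2), beside the 1.67% and 1.86% of all regions. The highest false discovery rate of a gained region in any list ran from 38.44% (Rock2) to 67.35% (Trio), and that of the lost region was 75.3%. None of these regions thus had a low rate in every list that held it. The median rate over all peaks was itself 29.65%, 32.66% and 45.21% in TON 4 to 6, and 30.8%, 44.1% and 93.0% in sham 1 to 3. The lowest fold enrichment of a gained region was 3.52, in Vav3, an exchange factor for small GTPases. The 2 Pak2 regions, on 2 rows of the same symbol, had nearly the same fold enrichments in the TON lists, 6.55 to 10.59 and 6.54 to 10.59. Whether they are 1 signal placed at 2 loci was not tested, so the count of 8 may hold 1 gain 2 times. The RNA of Pak2, a kinase downstream of Rac and Cdc42, was at 27.3, 13.4 and 5.27 FPKM in sham and 3.13, 14.0 and 3.61 FPKM in TON on the row of chr11:75034487-75092727. On a second row named Pak2, chr11:75823344-76106552, which holds the other gained region, it was at 2.75, 8.18 and 18.9 FPKM in sham and 6.28, 2.32 and 10.9 FPKM in TON. The groups overlapped on each row read alone, and the TON mean was lower on both (6.92 against 15.3 FPKM, and 6.50 against 9.96 FPKM). Sham 1 was highest on the first row and sham 3 on the second. The rows were not summed, so the level of Pak2 as a whole was not compared between the groups.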

How the data were processed

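Retinas were compared by MeRIP-seq (m6A immunoprecipitation with an input library) in 3 sham and 3 TON pools. The authors trimmed reads with cutadapt 1.9.3 and aligned them with HISAT2 2.0.4. The deposited expression table holds FPKM from Cuffdiff (Cufflinks) for protein-coding genes, with the length of each locus in bases, and a second column of signal, in which the authors appear to have rescaled fragments so that libraries match. Of its low values, 98.3% to 98.6% per library were whole multiples of 1 step within 0.1, which gave the estimated fragments. The deposited peak lists hold peaks the authors called per sample with MACS, with the length in bases, a score on a minus log10 scale of its p-value, the fold enrichment as a ratio of immunoprecipitated to input reads, and a percent false discovery rate. The build behind the coordinates is not settled, since the study's RNA methods state a human one for these rat samples, and depth of the immunoprecipitated libraries is unknown.

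Genes whose mean reached 0.1 FPKM in sham or TON were tested with limma 3.58.1 in R 4.3.3 on log2(FPKM + 1) with a trend of variance on level, and adjusted by Benjamini-Hochberg. This scale understates differences of low genes. Means, ratios and regions were computed in Python 3.11.15 with pandas 2.3.3 and NumPy 2.4.6. The scripts were tested on simulated data. The genes named were the 2 most abundant of each family, Dcc, genes with a gained or lost region, up to 5 with the largest differences in each direction among those without overlap (leaving out genes averaging under 1 FPKM), and the 5 with the most regions. Others are said to be named after their values were seen. Members and lists were chosen with earlier results of these data known. Alternatives were other pseudocounts, filters, scalings and peak thresholds, and leaving out samples.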

Additional observations from a re-analysis of the deposited data

How the results depend on the processing

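No guidance gene was called in any of the 15 alternatives to the fit of RNA levels. The limma adjusted p of the lowest member lay between 0.184 (scaled fragments in place of FPKM) and 0.738 (without TON 5). Of 28 named genes, 14 kept 1 sign throughout, including Plxnd1, Sema4a, Epha8, Efnb3, Slit2, Nrp1 and Robo1, and 14 changed sign at least once. Over all genes, the 7 calls became 44 with scaled fragments, 2 with no filter, 3 without sham 1 and 15 without sham 3. The cause was not tested.

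The 0 gained regions became 1 with the top 50% of peaks, 3 with a score of at least 100, 6 with at least 2 of 3 lists, and 10 without both sham 1 and TON 5. Leaving out 1 sample at a time gave 0 to 5. The 1 lost region became 0 with the top 50% of peaks or with whole genes, 6 with at least 2 of 3 lists, and 5 without both sham 1 and TON 5. With a score of at least 100 the 1 lost region was in Unc50, not Epha3. Leaving out 1 sample at a time gave 1 to 6. Requiring fewer lists or samples gives more such regions by construction. Scaled fragments and the removal of sham 1 with TON 5 were chosen after seeing the data.

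No paired analysis was possible because the sham samples are numbered 1 to 3 and the TON samples 4 to 6, so no number is shared. The 2 planned count-based tests were not run, because whole fragments could not be recovered for every value. Depth limits genes under 1 FPKM, such as Ntn1 with 0 to 5 fragments per library.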
